A study of Mus musculus with 4 samples.

Results

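The ciliated cells of the airway epithelium were examined in single-nucleus RNA-seq of mouse lung. Barcodes were taken as ciliated nuclei by a rule on measured values: 1500 or more unique molecular identifiers (UMIs, each standing for 1 captured transcript), at most 2 UMIs of the leukocyte gene Ptprc, and 10 or more UMIs from at least 5 of 9 genes, Cfap299, Agbl4, Cfap61, Dnah12, Rp1, Ccdc170, Kif6, Ccdc30 and Nek11. The rule took 3058 of 9212059 barcodes, or 3058 of the 111497 that met the limits on total and Ptprc UMIs. They came from 2 WT mice (513 and 313 nuclei) and 2 VEcad-TRF2DN-Tg mice (1302 and 930 nuclei), all of the strain C57/BL6J. The paper states that these lungs were from mice exposed to chronic hypoxia. It gives 8 to 9 weeks as the age of mice regularly used, and not the age when these lungs were taken. Both genotypes thus shared the strain and the exposure, and the age range is not given by genotype. In the Tg mice, a dominant-negative form of the telomere-binding protein TRF2 is expressed from the vascular endothelial cadherin promoter, which is active in endothelial cells and not in airway epithelium, so that ciliated cells are not the cells this promoter addresses. The human transgene was not among the genes counted. Mouse Terf2 (ENSMUSG00000031921) had normalised levels of 58.8 and 62.1 CPM in the ciliated nuclei of WT lungs and of 52.6 in both Tg mice, a log2 fold change of -0.20 (SE 0.187, adjusted p = 0.548). Adjusted p-values of genotype comparisons are from edgeR's quasi-likelihood test with Benjamini-Hochberg adjustment over all genes tested. CPM are UMIs of a gene relative to the UMI total of the library. Levels of ciliated nuclei in genotype comparisons use totals scaled by TMM (trimmed mean of M-values), and all other levels, those of the droplets included, use the plain totals.

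A motile cilium beats through the axoneme, a cylinder of doublet microtubules around a central pair. Inner and outer dynein arms on the doublets generate the force, radial spokes and the nexin-dynein regulatory complex coordinate it, and intraflagellar transport carries the parts along the cilium. Each cilium stands on a basal body, and a cell that becomes multiciliated first makes many centrioles around deuterosomes under the regulators Gmnc and Mcidas. Foxj1, Rfx3 and related factors then turn on the genes of the axoneme. In the lung these cells line the conducting airways among club cells, and their beating moves mucus outwards.

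Summed over the ciliated nuclei of a mouse, 1814947 to 6091860 UMIs were available, out of 125261739 to 182014706 in all barcodes of a mouse. A ciliated nucleus had a median of 4335 and 4191 UMIs in WT lungs and of 3709 and 4215 in Tg lungs, with 2211 to 2514 genes. No barcode of a ciliated nucleus occurred in 2 mice. At the edge of the rule, 25, 32, 43 and 22 nuclei (WT replicates 1 and 2, then Tg replicates 1 and 2) had only 10 to 12 UMIs of the 9 genes, and 164, 36, 17 and 13 barcodes just outside it had 7 to 9. All 9 genes were detected in 288, 153, 656 and 503 nuclei. The nuclei of 1 mouse are not replicates of a genotype, so that their UMIs were summed and the mouse was the unit of every test. For 1 value compared over 2 mice per genotype, 0.33 is the lowest two-sided p that exact permutation can reach.

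The label was checked with genes that the rule had not used. Spag17, a central pair protein, was 15.1 and 22.2 times higher in the ciliated nuclei than in the other barcodes of the same WT mouse and 40.5 and 42.5 times in Tg lungs. Hydin, another central pair protein, was 13.2 to 42.7 times higher, and Dnah5, a heavy chain of the outer dynein arm, 7.30 to 20.5 times. The transcription factor Rfx3 was 4.09 to 5.55 times higher and Foxj1, the main activator of motile cilia genes, 2.26 to 5.66 times. All 5 defining genes were thus higher in the ciliated nuclei of every mouse. These folds and the following ones describe nuclei that were selected on the same counts, and no test was made of them. A UMI of Spag17 was found in 89.9%, 87.2%, 91.4% and 91.8% of the ciliated nuclei, against 14.6%, 9.03%, 5.92% and 5.55% of barcodes selected by markers of type 2 alveolar cells (AT2-like, with 1968 to 2619 UMIs at the median), which make no motile cilia. AT2-like barcodes also had to hold fewer than 3 UMIs of the 9 rule genes, so that their low shares are no separate check of the label. For Foxj1 the shares were 38.0%, 27.8%, 54.1% and 42.8%, against 10.1%, 5.97%, 10.5% and 8.19%. After thinning to 1500 UMIs, the Foxj1 shares were 13.6%, 9.58%, 27.6% and 18.2%, against 7.06%, 4.16%, 6.15% and 5.04%. No UMI of Krt5, the keratin of basal cells, was counted in any of the ciliated nuclei. Only 0, 0, 3 and 2 of the AT2-like barcodes had one, so that Krt5 is no check of the label.

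Of 11564 genes with 10 or more UMIs in the ciliated nuclei of every mouse, 619 were at least 4-fold higher there than in the other barcodes of all 4 mice (5.35%) and 1121 at least 2-fold (9.69%), and the median gene had a fold of 0.866. Genes were ranked by their lowest fold over the mice. Leading them outside the rule were Defb23, which encodes a beta-defensin (27.2 to 67.4 times higher), Ttll6, which adds glutamate chains to tubulin (22.7 to 52.4 times), Apobec4, of a family of cytidine deaminases (20.7 to 28.9 times), Olah, a thioesterase of fatty acid synthesis (20.1 to 57.2 times), and Ptprh, a receptor tyrosine phosphatase (up to 42.6 times). The following ranks held Efcab6, Adamts20, Dydc1, Cfap73, Katnal2, Col26a1, Vwa3a, Cfap46, T2, Wdr95, Ulk4, Cfap99, Armc2, Shisal2a and Itga11, with a lowest fold of 16.1 for Itga11, an integrin chain that binds collagen. Cilium genes shared the top ranks with genes of other known roles, such as the secreted protease Adamts20 and the collagen Col26a1.

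**Figure D1:**
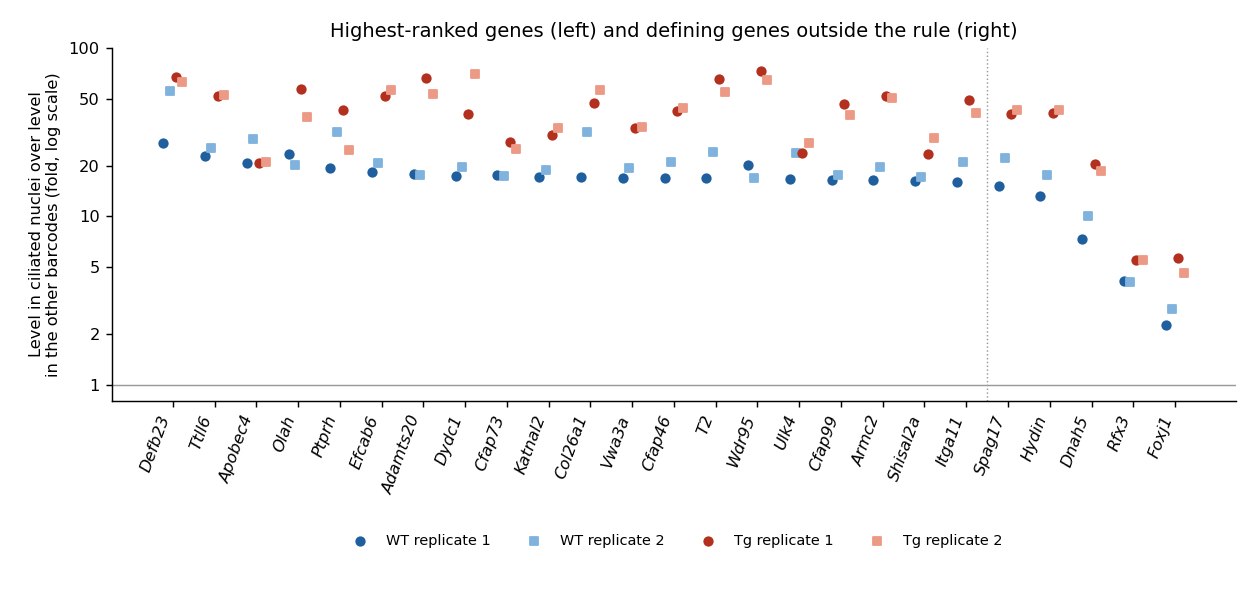
Level of a gene in ciliated nuclei over its level in the other barcodes with 1500 or more UMIs of the same mouse, as a fold on a log axis, with 1 point per mouse. The 20 highest ranked genes outside the rule stand on the left, where all points lie above 16, and 5 defining genes on the right, where Foxj1 spans 2.26 to 5.66.

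The parts of the cilium differed in how far they stood out. Of the axonemal dynein chains, 17 of 20 genes with enough UMIs were at least 4-fold higher in every mouse, with a median fold of 16.6 over the genes. Among the radial spoke and central pair genes it was 20 of 26 (median fold 19.2), among the genes of doublet microtubules and the nexin-dynein complex 27 of 35 (12.3), and among factors that assemble and dock dynein arms 11 of 15 (10.5). The genes of intraflagellar transport, which cells with a primary cilium also use, stood out less, with 10 of 31 (3.21), as did those of the basal body and transition zone with 6 of 32 (2.96). Of tubulins and tubulin-modifying enzymes, 6 of 21 were at least 4-fold higher (Ttll6, Ttll9, Agbl2, Agbl3, Ttll13 and Ttll3), and the tubulin gene Tubb4b itself had folds of only 0.827 to 1.37. Of the transcription factors and regulators of ciliated cells, 7 of 14 were past 4-fold, namely Trp73, Deup1, Cdc20b, Rfx2, Myb, Mcidas and Rfx3. General genes of airway epithelium gave 3 of 22, the cadherin-related Cdhr3 and Cdhr4 and the membrane protein Prom1. Single genes of other lists were the membrane protein Tmem212, the clock gene Npas2 and the cytochrome Cyp2s1.

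Rfx factors bind X-box motifs, whose conserved arm reads GTTGCC. In RefSeq promoters of the build GRCm38.p6 (the files' mm10), from 250 bases before to 50 after a start, 109 of the 144 genes of the 4 axoneme lists and the intraflagellar transport list had an entry, with 120 promoters. GTTGCC occurred on either strand in 53 of these 120 promoters (44.2%), against 4111 of all 32851 promoters (12.5%). At least 2 matches were found in 14 of the 120 (11.7%) and in 336 of all promoters (1.02%). Of the promoters of the genes at least 4-fold higher in ciliated nuclei, 158 of 595 (26.6%) held the motif, and of those of the 100 highest ranked genes 17 of 83 (20.5%). The longer form GTTGCCATG, each match of which also counts as GTTGCC, was found in 2 of the 120 promoters (1.67%) and in 254 of all (0.773%). Counted by gene, these were 1 of 109 (0.917%) and 237 of 27025 (0.877%). Of the promoters of the genes at least 4-fold higher, 24 of 595 (4.03%) held it. TGTTTAC, a letter string bound by forkhead factors, was in 4 of the 120 (3.33%) and 1199 of all (3.65%). It was in 26 of the 595 promoters of the genes at least 4-fold higher (4.37%). Of those of the 100 highest ranked genes, 5 of 83 held it (6.02%), and of those of all genes ranked, 339 of 11733 (2.89%). A match is a string of letters and not a measured binding site. Shown are the promoters of the 4 highest ranked list genes with 2 matches, 5′ to 3′ on the strand of the gene, with GTTGCC or its reverse complement GGCAAC in capitals. They belong to Cfap44, a protein attached to the doublets (chr16:44394549-44394848, plus strand), the central pair gene Cfap74 (chr4:155408940-155409239, plus strand), the central pair gene Spag16 (chr1:69826720-69827019, plus strand) and the inner arm dynein Dnah10 (chr5:124724835-124725134, plus strand).
Cfap44: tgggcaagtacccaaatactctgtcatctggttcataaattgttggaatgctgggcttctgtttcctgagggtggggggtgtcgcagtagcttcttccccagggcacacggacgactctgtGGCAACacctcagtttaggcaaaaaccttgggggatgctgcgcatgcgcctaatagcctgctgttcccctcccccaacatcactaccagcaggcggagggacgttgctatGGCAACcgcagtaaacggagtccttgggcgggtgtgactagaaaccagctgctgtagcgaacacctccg
Cfap74: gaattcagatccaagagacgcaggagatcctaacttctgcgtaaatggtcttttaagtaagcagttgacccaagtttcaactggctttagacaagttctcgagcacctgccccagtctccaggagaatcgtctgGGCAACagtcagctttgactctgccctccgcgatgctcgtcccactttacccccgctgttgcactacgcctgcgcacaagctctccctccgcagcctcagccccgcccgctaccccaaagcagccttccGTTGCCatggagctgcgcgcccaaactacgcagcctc
Spag16: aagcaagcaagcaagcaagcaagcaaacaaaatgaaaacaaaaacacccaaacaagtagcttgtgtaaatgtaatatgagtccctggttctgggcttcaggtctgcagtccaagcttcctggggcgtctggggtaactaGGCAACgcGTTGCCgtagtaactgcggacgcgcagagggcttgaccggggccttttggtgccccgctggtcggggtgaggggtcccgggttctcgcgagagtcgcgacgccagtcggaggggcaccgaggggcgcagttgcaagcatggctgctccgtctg
Dnah10: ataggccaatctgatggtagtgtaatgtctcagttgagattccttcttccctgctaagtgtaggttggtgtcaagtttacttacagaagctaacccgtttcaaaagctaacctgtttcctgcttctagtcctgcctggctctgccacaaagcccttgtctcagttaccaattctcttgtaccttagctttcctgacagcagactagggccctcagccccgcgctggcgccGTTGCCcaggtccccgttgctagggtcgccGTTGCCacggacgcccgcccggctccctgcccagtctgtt
The matches lay 104 bases apart in Cfap44, 123 in Cfap74, 2 in Spag16 and 24 in Dnah10. In Spag16 the 2 copies pointed away from each other, and in Dnah10 both ran along the gene strand.

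Transcripts known from other cell types were counted in the ciliated nuclei. Scgb1a1, the main secretory product of club cells, was found in every ciliated nucleus and in every AT2-like barcode, and was therefore not read as expression. Its share of the RNA differed between the mice, with 14242.5 and 14681.1 CPM in the WT droplets without a nucleus (barcodes ranked 45000 to 90000 by UMIs) and 117613.4 and 35512.3 in those of Tg lungs. If all surfactant RNA in the ciliated nuclei came from such free RNA, it made up 32.1% and 38.1% of their UMIs in WT lungs and 24.4% and 28.9% in Tg lungs. From Scgb1a1 the estimates were 31.9% and 39.6%, and 25.8% and 31.9%. A list of 20 markers of endothelial, mesenchymal, alveolar, mesothelial and immune cells came to 1205.9, 1587.9, 1345.9 and 1550.4 CPM in the ciliated nuclei, against 2870.3, 3312.5, 3044.4 and 3514.2 in the droplets. These markers were less abundant in the nuclei than in the droplets of every mouse. The droplets had at most 1178, 1296, 988 and 1474 UMIs, and whether some of them held a nucleus was not tested. The 9 genes of the rule had 1307.3 and 578 CPM in the WT droplets and 346 and 302 in the Tg droplets. Free RNA thus differed between the genotypes in both directions. Mitochondrial transcripts were a median of 0.0474% and 0.0564% of the UMIs of a ciliated nucleus in WT lungs and 0.213% and 0.236% in Tg lungs. The part of free RNA in the differences between genotypes was not tested.

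The ciliated nuclei also varied among themselves. Each nucleus was thinned to 1500 UMIs, and the variance over the mean of a gene was computed within each mouse, which is 1 for pure counting error. Of 2707 genes with a mean of at least 0.1 UMI in every mouse, 6 exceeded 2 in all 4 mice and 34 exceeded 1.5, and the median of the lowest ratio was 0.998. Galntl6, of the family of enzymes that start O-linked glycans, led with ratios of 7.16 and 3.28 in WT lungs and 6.07 and 5.14 in Tg lungs. It was followed by the nuclear RNA Malat1 (3.09 to 14.2), the alveolar type 1 gene Rtkn2 (2.32 to 3.11), Scgb1a1 (2.31 to 9.99), the potassium channel partner Kcnip4 (2.18 to 3.11) and Adamts20 (2.17 to 2.49). Gm14051, the receptor Bmpr1b, the phosphatase Ptprd and the transcription factor Mecom completed the first 10, with lowest ratios of 1.76 to 1.90. Of the 10, Rtkn2 is a marker of type 1 alveolar cells and Scgb1a1 one of club cells.

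Galntl6 was described further because of this rank, after its values were seen. At 1500 UMIs, it had no UMI in 44.6% and 85.0% of the ciliated nuclei of WT lungs and in 62.5% and 67.3% of those of Tg lungs. Nuclei with 5 or more Galntl6 UMIs numbered 106 of 513 (20.7%) and 3 of 313 (0.958%) in WT lungs and 156 of 1302 (12%) and 60 of 930 (6.45%) in Tg lungs. They held 74.7%, 30.9%, 67.8% and 51.8% of all Galntl6 UMIs. The gene was thus concentrated in a minority of nuclei in 3 of the 4 mice and low in WT replicate 2. Its normalised levels summed over the nuclei were 2640 and 212 CPM in WT lungs and 1260 and 849 in Tg lungs, so that the WT mice enclosed the Tg mice (log2 fold change -0.43, SE 0.846, adjusted p = 0.791).

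**Figure D2:**
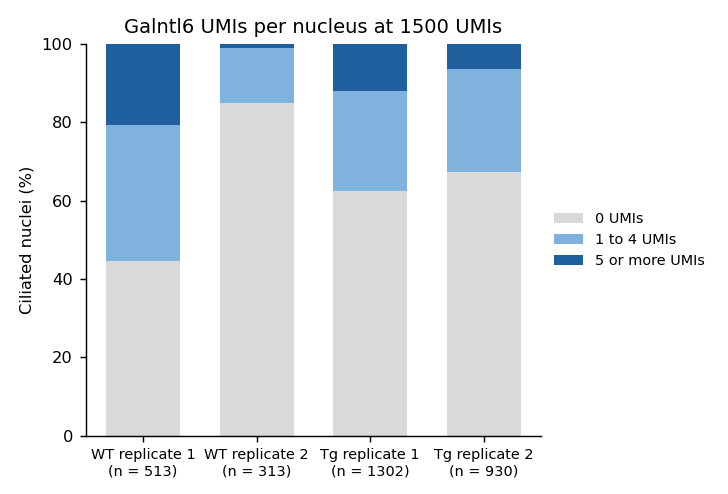
Share of ciliated nuclei of each mouse with no UMI, 1 to 4 UMIs and 5 or more UMIs of Galntl6 after thinning each nucleus to 1500 UMIs, in percent. Nuclei with 5 or more reach 20.7% in WT replicate 1 and 0.958% in WT replicate 2.

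A small number of ciliated nuclei carried Cdc20b, whose locus is active while deuterosomes form. Nuclei with 3 or more Cdc20b UMIs, a limit set after the values were seen, numbered 16 of 513 and 12 of 313 in WT lungs and 10 of 1302 and 15 of 930 in Tg lungs. They were 3.12% (exact 95% binomial interval 1.79 to 5.02) and 3.83% (2.00 to 6.6) of the ciliated nuclei of WT lungs and 0.768% (0.369 to 1.41) and 1.61% (0.905 to 2.65) of those of Tg lungs. These intervals cover counting error only. The 53 nuclei held 92.5%, 96.0%, 84.3% and 93.6% of the Cdc20b UMIs of the ciliated nuclei. They were deeper than the others, with a median of 5557.5, 9111, 5624 and 7236 UMIs against 4281, 4160, 3698.5 and 4208. At 1500 UMIs each, 14, 5, 7 and 10 nuclei kept 3 Cdc20b UMIs (2.73%, 1.60%, 0.538% and 1.08%).

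Some genes of centriole formation, named after their values were seen, were much higher in the same nuclei. Mcidas, which drives the multiciliated programme, had 354, 153, 473 and 577 CPM in them and 0, 0.594, 1.16 and 1.02 in the other ciliated nuclei. Deup1, the scaffold of the deuterosome, had 1300.9, 688, 588 and 842 against 35.3, 27.3, 30.4 and 29.5. Stil and Plk4, which start a new centriole, had 572, 245, 186 and 331 against 7.20, 7.12, 3.16 and 4.08, and 312, 138, 229 and 189 against 2.29, 4.75, 5.81 and 5.09. Every mouse showed these genes far above the other nuclei, in nuclei selected on a single gene. Of 2692 genes compared, 26 were at least 4-fold higher in all 4 mice. Besides the genes named, they held Foxn4, Ccdc18, Ckap2l, E2f7, Hyls1, Cep152, Poc1a, Cntrob, Knl1, Cenpp, Crocc2, Ect2 and the dynein heavy chain Dnah8. Myb, which acts early in the multiciliated programme, had 1207.2, 321, 430 and 861 CPM against 198, 164, 163 and 202. The axonemal gene Dnah5 was lower in them, with 989, 551, 602 and 463 against 1447.8, 819, 1227.1 and 1028.1. The proliferation marker Mki67 had 1, 1, 0 and 0 UMIs in them.

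**Figure D3:**
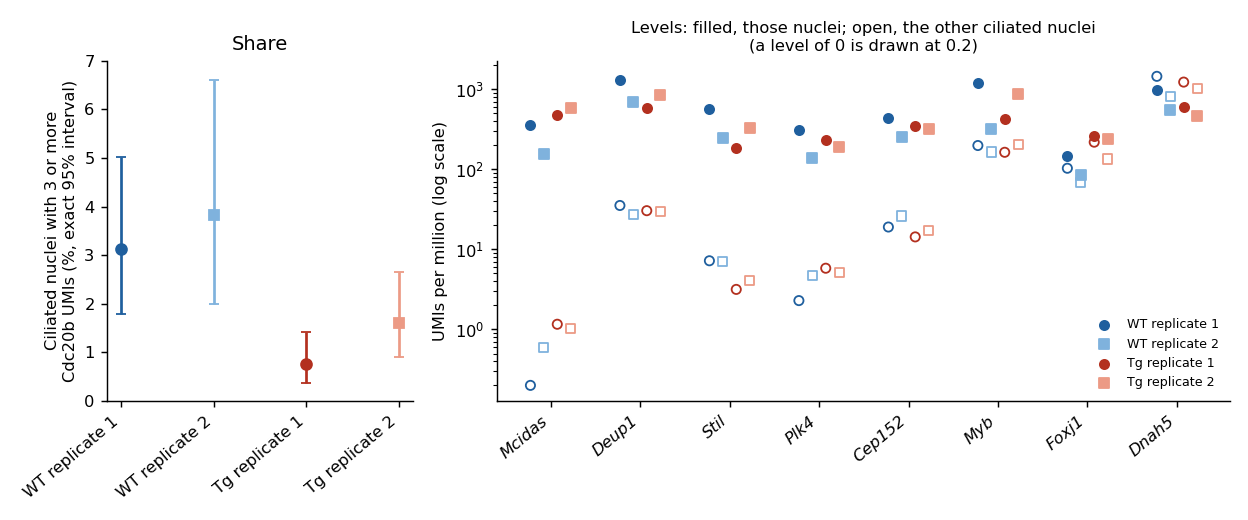
The left side plots the share of ciliated nuclei with 3 or more Cdc20b UMIs in each mouse, in percent with exact 95% binomial intervals, and the right side the levels of 8 genes in CPM on a log axis, in those nuclei (filled) and in the other ciliated nuclei (open, a level of 0 drawn at the lower end) of each mouse. Mcidas, Deup1, Stil, Plk4 and Cep152 are higher in the filled points of every mouse, and Dnah5 is lower.

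More barcodes met the rule in Tg lungs. The ciliated nuclei were 2.08% (exact 95% binomial interval 1.91 to 2.27) and 1.06% (0.948 to 1.19) of the barcodes within the same limits on total and Ptprc UMIs in WT lungs, and 5.78% (5.48 to 6.1) and 2.67% (2.50 to 2.84) in Tg lungs. The means were 1.57% ± 0.72 (SD, n = 2) and 4.23% ± 2.20 (SD, n = 2), and their difference of 2.65 percentage points had p = 0.33 in the two-sided exact permutation test, the smallest this design allows. Both Tg mice lay above both WT mice. The barcodes they were set against differed in depth, with medians of 1828 and 1903 UMIs in the other barcodes of WT lungs and 2402 and 2250 in those of Tg lungs. With at least 2500 UMIs the shares were 6.54% and 3.88% in WT lungs and 9.50% and 5.16% in Tg lungs, and with at least 5000, a minimum chosen after seeing the data, 14.4%, 6.64%, 23.6% and 10.9%. The groups overlapped at both of these minimums (p = 0.67, two-sided exact permutation test). Of the rule-gene UMIs in barcodes past the limit on total UMIs, the ciliated nuclei of WT lungs held 40.1% and 24.1%. Those of Tg lungs held 80.0% and 57.1%. The rule genes stood at 885 and 482 CPM in the other barcodes of WT lungs and at 165 and 178 in Tg lungs. A larger part of these UMIs thus lay outside the ciliated nuclei in WT lungs, and its part in the shares was not tested. More ciliated cells and more of their nuclei recovered cannot be told apart here.

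Of 14643 genes tested between the genotypes in the ciliated nuclei, 906 passed an adjusted p of 0.05 (6.19%), of which 818 were higher (5.59%) and 88 lower (0.601%) in Tg lungs. The median log2 fold change of all genes tested was 0.02. The count rested on Tg replicate 1: without it no gene passed in edgeR, with 1325 at an unadjusted p under 0.05, and without Tg replicate 2 there were 183. In these fits the lone Tg mouse is assumed to vary like the WT mice. Of the 906 genes, 896 could be tested without Tg replicate 1, and all 896 had the same sign there. They had been called with both Tg mice in the fit, so that the shared sign largely follows from their choice. It is no separate support. The medians of the ribosomal and mitochondrial genes, 2.03 and 2.00 with all mice, were 1.86 and 1.97 without Tg replicate 1. The droplets without a nucleus were compared in the same way, and 4686 of 18320 genes passed (25.6%). The genes higher in ciliated nuclei had a median log2 fold change of 2.13 in the nuclei and of 2.00 in the droplets, and those lower had -1.45 and -1.64. Nuclei and droplets come from the same mice. The difference between the 2 log2 fold changes was tested as an interaction, which 1682 of 18172 genes passed (9.26%), 908 upwards (5.00%) and 774 downwards (4.26%). It was positive for 69 and negative for 143 of the 818 genes, and positive and negative for 3 each of the 88. After subtraction of the estimated free RNA, 111 of 12686 genes passed (0.875%), 102 higher (0.804%) and 9 lower (0.0709%), and for 24 of them 1 genotype was at 0 UMIs after subtraction. Of the 619 genes at least 4-fold higher in ciliated nuclei than in other barcodes, 20 were higher and 5 lower in Tg lungs (4.04%). Of the 10443 not even 2-fold higher, 477 were higher and 70 lower (5.24%). A share of non-overlapping genes carries little information with 2 mice per genotype, since 30.6% of all genes were above the WT range in each Tg lung and 26.9% below it.

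**Figure D4:**
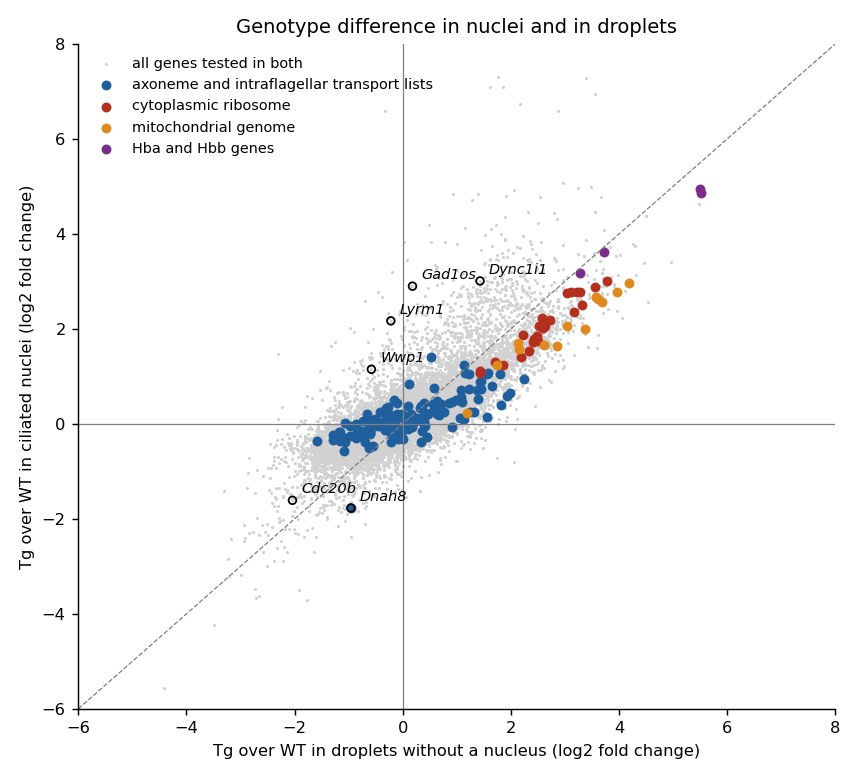
Log2 fold change of Tg over WT in the ciliated nuclei (vertical) against that in the droplets without a nucleus (horizontal), with 1 point per gene tested in both and the line of equal values dashed. Axoneme and intraflagellar transport genes lie around 0 in the nuclei, ribosomal, mitochondrial and globin genes lie high on both axes, and Gad1os and Lyrm1 are high in the nuclei only (2.90 and 2.17, against 0.18 and -0.22).

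Genes of the axoneme were mostly below the threshold. Of 133 tested genes of the 4 axoneme lists and the intraflagellar transport list, none passed as higher and 1 as lower, with 18 higher and 3 lower at an unadjusted p under 0.05 (beside 23.4% of all genes, 15.7% higher and 7.68% lower) and a median log2 fold change of 0.10 (0.01 in the droplets). DESeq2 called 1 of them higher and 1 lower. Dnah5 had normalised levels of 1490 and 790 CPM in WT lungs and of 1240 and 988 in Tg lungs (log2 fold change -0.04, SE 0.324, adjusted p = 0.955). Hydin had 969 and 740, and 939 and 827 (0.05, SE 0.233, adjusted p = 0.924). For both genes the WT mice enclosed the Tg mice. The central pair gene Spag16 had 1540 and 1050, and 1080 and 985, which overlapped (-0.33, SE 0.26, adjusted p = 0.468). Cfap43, which tethers the inner arm dyneins to the doublets, had 1860 and 1120, and 1380 and 1260 (-0.17, SE 0.293, adjusted p = 0.758). These standard errors do not exclude smaller changes of single genes.

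List by list, the median log2 fold changes were -0.05 for 21 dynein chains (1 lower, Dnah8), 0.16 for 16 factors of dynein assembly and docking, -0.01 for 26 genes of radial spokes and the central pair, 0.23 for 38 genes of doublets and the nexin-dynein complex and 0.10 for 32 genes of intraflagellar transport. The last 4 lists had no gene past the threshold in edgeR, with 6, 1, 8 and 5 genes at an unadjusted p under 0.05 (23.4% over all genes), and DESeq2 called 1 gene of them, Ttc21a, a subunit of the retrograde transport complex. Other edgeR fits called more of them higher, with 3, 0, 4 and 2 genes without a filter on low counts and 4, 0, 3 and 2 without WT replicate 1, and each of these fits also called 1 dynein chain higher. Ttc21a had normalised levels of 268 and 257 CPM in WT lungs and of 559 and 385 in Tg lungs, and missed the threshold in edgeR (log2 fold change 0.85, SE 0.229, adjusted p = 0.0705). Dync2h1, the motor chain of retrograde transport, had 542 and 397, and 542 and 465 (0.10, SE 0.226, adjusted p = 0.822). The docking gene Armc4 had 500 and 324, and 354 and 321 (-0.29, SE 0.242, adjusted p = 0.497). The 9 genes of the rule had log2 fold changes between -0.49 (Agbl4) and 0.17 (Dnah12). Their levels took part in the choice of the nuclei, so that these values are a description only.

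The regulators Cdc20b and Deup1 and the centriole gene Stil were lower in Tg lungs, while Mcidas and Myb did not pass. Cdc20b (ENSMUSG00000078926, chr13:113034975-113121019) had 428 and 200 UMIs in the ciliated nuclei of WT lungs and 204 and 250 in those of Tg lungs, in which many more nuclei had been summed. Its normalised levels were 141 and 109 CPM in WT lungs and 34.1 and 48.5 in Tg lungs (log2 fold change -1.61, SE 0.24, adjusted p = 0.0121). Both Tg mice lay below both WT mice, and the log2 fold change in the droplets was -2.04. Deup1 (ENSMUSG00000039977, chr9:15559864-15628351) had 77.0 and 74.1 CPM in WT lungs and 37.4 and 45.4 in Tg lungs (-0.87, SE 0.199, adjusted p = 0.0422), with -0.15 in the droplets. Stil (ENSMUSG00000028718, chr4:115000108-115043203) had 25.4 and 24.0, and 5.34 and 10.7 (-1.64, SE 0.374, adjusted p = 0.0423), with -1.30 in the droplets. Deup1 in the droplets was at 9.85, 4.23, 6.68 and 4.57 CPM and overlapped between the genotypes. With either Tg mouse left out, none of the 3 passed, and Cdc20b had -1.37 without Tg replicate 1 (adjusted p = 0.245) and -1.88 without Tg replicate 2 (adjusted p = 0.0614). After subtraction of free RNA, Cdc20b had -1.77 (adjusted p = 0.0341) and Deup1 -1.08 (adjusted p = 0.0818), and Stil had -1.80 (adjusted p = 0.113).

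Dnah8 (ENSMUSG00000033826, chr17:30626935-30875762), a dynein heavy chain best known from sperm, was also lower. Its normalised levels were 73.7 and 49.6 CPM in WT lungs and 18 and 18.2 in Tg lungs (log2 fold change -1.77, SE 0.252, adjusted p = 0.0108). The droplets had -0.96, and the difference from them passed the test (-0.92, adjusted p = 0.0209), as did the value after subtraction of free RNA (-2.00, adjusted p = 0.0241). Without Tg replicate 1 the log2 fold change was -1.76 (adjusted p = 0.244), and without Tg replicate 2 it was -1.78 (adjusted p = 0.0833). On plain library totals, in the nuclei with fewer than 3 Cdc20b UMIs, Dnah8 had 60.8 and 35.6 CPM in WT lungs and 14.9 and 14.3 in Tg lungs, so that the genotypes did not overlap in these nuclei either. For Deup1 those other nuclei had 35.3 and 27.3 against 30.4 and 29.5, which overlapped. For Stil they had 7.20 and 7.12 against 3.16 and 4.08, which did not overlap. These Stil levels rest on 22, 12, 19 and 20 UMIs, and the droplets had 8.73 and 9.25, and 2.72 and 3.90 CPM. The smaller share of Cdc20b nuclei in Tg lungs moved with the lower sums of Cdc20b, Deup1 and Stil, and its part in them was not tested. Mcidas, in contrast, had 11.2 and 11.4 CPM in WT lungs and 6.68 and 12.8 in Tg lungs (-0.23, SE 0.408, adjusted p = 0.772).

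Foxj1, Rfx3, Trp73 and Myb, which encode transcription factors, did not pass. Foxj1 (ENSMUSG00000034227, chr11:116330704-116335499) had 328 and 126 UMIs in WT lungs and 1329 and 681 in Tg lungs. Its normalised levels were 108 and 68.6 CPM in WT lungs and 222 and 132 in Tg lungs, higher in both Tg mice (log2 fold change 0.99, SE 0.303, adjusted p = 0.0971). In the droplets the Foxj1 levels were 75.1 and 27.7, and 105 and 52.0 CPM (log2 fold change 0.80), and the difference from the droplets was 0.04 (adjusted p = 0.939). Without WT replicate 1 the log2 fold change in the nuclei was 1.37 (adjusted p = 0.00015), and without Tg replicate 1 it was 0.57 (adjusted p = 0.680). Rfx3 had 1470 and 1050, and 676 and 870 (-0.71, SE 0.263, adjusted p = 0.156), with -1.83 in the droplets. Trp73, which acts upstream of Foxj1, had 182 and 192, and 177 and 170 (-0.11, SE 0.175, adjusted p = 0.738), and Myb had 238 and 173, and 169 and 210 (-0.12, SE 0.221, adjusted p = 0.768). Of the 16 regulators tested, 2 were thus called lower, Cdc20b and Deup1 (beside 0.601% of all genes), and none higher (beside 5.59%).

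**Figure D5:**
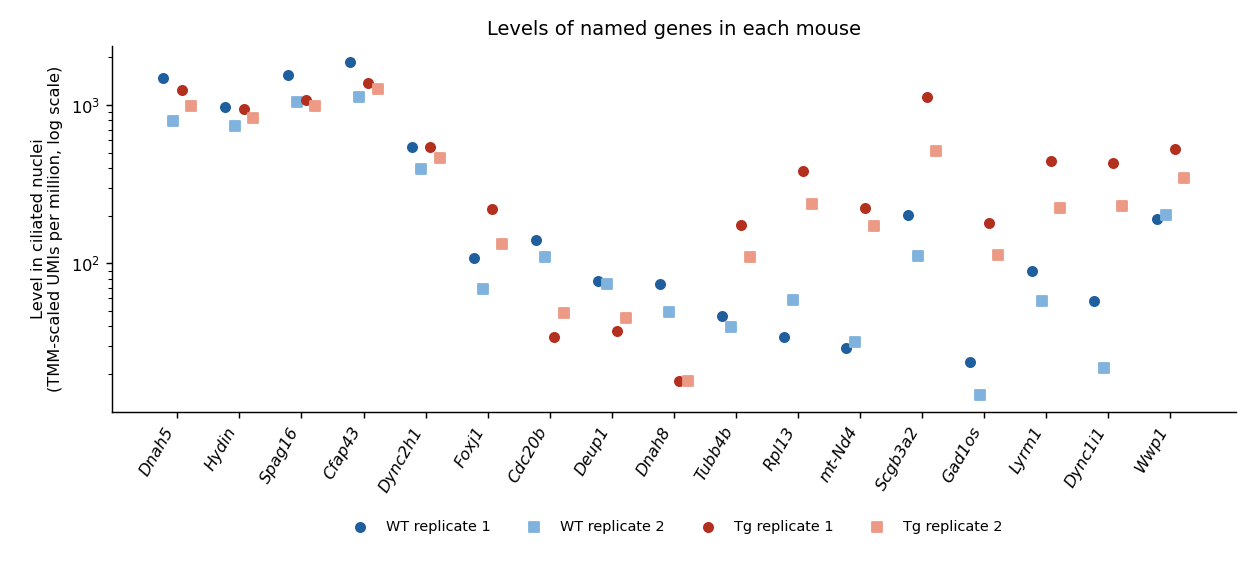
Normalised level in ciliated nuclei of 17 named genes in each mouse, in TMM-scaled CPM on a log axis. Dnah5, Hydin, Spag16, Cfap43 and Dync2h1 overlap between the genotypes, Cdc20b, Deup1 and Dnah8 are lower in both Tg mice, and Tubb4b, Rpl13, mt-Nd4, Scgb3a2, Gad1os, Lyrm1, Dync1i1 and Wwp1 are higher.

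Of the tubulin, basal body and epithelium lists, 3 of 26, 1 of 32 and 3 of 23 genes rose, beside 5.59% of all genes. Tubb4b, the beta-tubulin of cilia, had 46.3 and 39.8 CPM in WT lungs and 176 and 110 in Tg lungs (log2 fold change 1.73, SE 0.261, adjusted p = 0.0125), with 2.16 in the droplets and 1.70 after subtraction (adjusted p = 0.0374). Tuba1a, an alpha-tubulin, rose by 1.72 (SE 0.338, adjusted p = 0.0257), with 2.30 in the droplets. Atat1, which acetylates alpha-tubulin, had 29.4 in both WT mice and 61.4 and 52.6 in Tg lungs (0.95, SE 0.209, adjusted p = 0.0367). Its droplets had -0.17, and the difference from them passed the test (1.00, adjusted p = 0.0124). After subtraction, Atat1 had 1.01 and no longer passed (adjusted p = 0.098), and Tuba1a had 1.53 (adjusted p = 0.0929). Cetn2, a centrin of the basal body, had 24.8 and 22.3, and 77.8 and 45.4 (1.38, SE 0.295, adjusted p = 0.0337), with 1.83 in the droplets. Cetn2 and Stil were the genes called among 32 of the basal body and transition zone. Among 23 genes of airway epithelium, the keratins Krt19 (1.94, SE 0.276, adjusted p = 0.0108) and Krt8 (1.51, SE 0.235, adjusted p = 0.0132) and the claudin Cldn3 (2.20, SE 0.381, adjusted p = 0.0182) rose, with 2.76, 1.89 and 2.62 in the droplets. Nkx2-1, the lung epithelial transcription factor, fell by 0.92 (SE 0.195, adjusted p = 0.0333), with -0.98 in the droplets. After subtraction of free RNA, Cetn2 and these 4 genes did not pass, with log2 fold changes of 1.43 for Cetn2 (adjusted p = 0.125), 1.53 for Krt19 (0.12), 1.42 for Krt8 (0.0643), 2.15 for Cldn3 (0.0862) and -0.35 for Nkx2-1 (0.492).

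Groups with many members called higher in the nuclei were also higher in the Tg droplets, by the median of each group. Of 24 genes of the cytoplasmic ribosome, 21 rose (beside 5.59% of all genes, which holds for the counts that follow too), with a median log2 fold change of 2.03 in the nuclei and 2.55 in the droplets. Rpl13 had 34.4 and 58.8 CPM in the WT nuclei and 386 and 238 in the Tg nuclei (2.77, SE 0.329, adjusted p = 0.00837), against 89.5 and 218, and 1600 and 921, in the droplets. Of 13 genes of the mitochondrial genome, 12 rose, with medians of 2.00 and 3.03. mt-Nd4 had 29.4 and 32.1 CPM in the WT nuclei and 223 and 171 in the Tg nuclei (2.68, SE 0.221, adjusted p = 0.00236), against 71.3 and 60.8, and 849 and 532, in the droplets. The levels were lower in the nuclei than in the droplets of every mouse for both genes, and the rise of mt-Nd4 was smaller in the nuclei (difference -0.96, adjusted p = 0.0204). Of the 8 mesothelial and erythroid markers, 6 rose (medians 2.51 and 2.71), among them the globin genes Hbb-bt (4.95, SE 0.333, adjusted p = 0.0013) and Hba-a1 (3.62, SE 0.227, adjusted p = 0.0013), whose near-identical copies may share reads. Of 20 secretory products, 7 rose (medians 1.34 and 1.75), such as Scgb3a2 with 203 and 111 CPM in the WT nuclei and 1130 and 510 in the Tg nuclei (2.37, SE 0.419, adjusted p = 0.0195). Sftpc, the surfactant protein of type 2 cells, rose by 2.75 (SE 0.427, adjusted p = 0.0132), and Scgb1a1 had 2.00 (SE 0.564, adjusted p = 0.0784). In the droplets Scgb3a2 had 2.72, Sftpc 3.22, Scgb1a1 2.62, Hbb-bt 5.50 and Hba-a1 3.72. After subtraction Scgb3a2 was at 0 UMIs in both WT mice, and its fitted change (adjusted p = 0.0241) has no fold that could be read. After subtraction of free RNA, none of the 8 ribosomal and 10 mitochondrial genes still tested passed in edgeR, with medians of 0.92 and -0.70.

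Markers of endothelial, mesenchymal, immune, alveolar and club cells were mostly below the threshold. Of the 10 endothelial markers none passed in edgeR (2 at an unadjusted p under 0.05, beside 23.4% of all genes, and none in DESeq2), with a median log2 fold change of 0.49 in the nuclei and 0.45 in the droplets. The endothelial markers summed to 419, 447, 502 and 496 CPM in the ciliated nuclei and to 907 to 1081.5 in the droplets. Of 10 mesenchymal markers, Mgp rose (1.31, SE 0.314, adjusted p = 0.0491), with 1.69 in the droplets. The 14 immune markers had none past the threshold (5 at an unadjusted p under 0.05, none in DESeq2). After subtraction of free RNA, 1 of 8 endothelial and 2 of 3 immune markers still tested were called higher. The endothelial median was 1.21. The immune median of 6.68 is of 3 fitted values, among them that of Mrc1, and is no readable size of change. Flt1, an endothelial receptor, then had 4.01 (adjusted p = 0.0407), against 0.18 without subtraction (adjusted p = 0.608). The macrophage receptor Mrc1 was left at 0 UMIs in both WT mice (adjusted p = 0.0203), against -0.11 without subtraction (adjusted p = 0.9). The immune count also rested on single mice: without WT replicate 1, 3 of them were called lower (median -0.24), without WT replicate 2, 5 were called higher (median 0.79), and without a filter on low counts 4 were higher and 2 lower. The markers of type 1 and type 2 alveolar cells and of club cells had 1 of 11, 3 of 12 and 2 of 11 higher, beside 5.59% of all genes. These were Ager (1.58, SE 0.246, adjusted p = 0.0132), Sftpc, Sftpa1 (1.37, SE 0.265, adjusted p = 0.0248), Napsa (1.13, SE 0.261, adjusted p = 0.0428), Scgb3a2 and Hp (1.54, SE 0.282, adjusted p = 0.0218). In the droplets the log2 fold changes were 1.92 for Ager, 1.89 for Sftpa1, 1.91 for Napsa and 1.61 for Hp. After subtraction of free RNA, Napsa had 0.30 (adjusted p = 0.835) and Hp 3.34 (adjusted p = 0.157), so that neither passed, and Ager was not tested. Sftpa1 then had 1.69 (adjusted p = 0.57), and Sftpc was not tested. Both are among the 4 surfactant genes that set the amount subtracted, so that subtraction is no test of them. Of 12 marker genes of basal, neuroendocrine, tuft and ionocyte cells, 6 to 8 had any UMI in a mouse, and they summed to 29.9 to 56.8 CPM. Most of that sum was Dclk1, a kinase of tuft cells, with 151 and 94 UMIs in the WT nuclei and 127 and 163 in the Tg nuclei (log2 fold change -0.94, adjusted p = 0.066). In droplet sums, a change in expression and a change in admixed RNA of other cells cannot be told apart.

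Stress and signalling genes were mostly below the threshold. The CDK inhibitor gene Cdkn1a had normalised levels of 24.1 and 29.4 CPM in WT lungs and of 28.4 and 45.2 in Tg lungs (log2 fold change 0.47, SE 0.286, adjusted p = 0.358), and the groups overlapped. In the droplets it had 43.2 and 67.0, and 92 and 129 (1.15). Plk3, a stress-induced kinase, rose from 2.31 and 2.18 to 18 and 13.0 (2.77, SE 0.437, adjusted p = 0.0136, with 1.43 in the droplets) and was the 1 gene called of 21 p53 targets and cell cycle inhibitors, beside 6.19% of all genes. It rests on 7 and 4 UMIs in the WT nuclei against 108 and 67 in the Tg nuclei, and after subtraction of free RNA it had 4.13 (adjusted p = 0.0718). Of 20 Notch pathway genes none was called in edgeR (5 at an unadjusted p under 0.05, beside 23.4% of all genes, and none in DESeq2). Without a filter on low counts, edgeR called 1 of 24 higher and 2 lower, beside 1850 higher and 401 lower of all 23288. Hes1, a Notch target, had 68.7 and 75.7, and 149 and 93.7 (0.75, SE 0.249, adjusted p = 0.118), and the coactivator Maml2 had 1230 and 1020, and 802 and 947 (-0.36, SE 0.231, adjusted p = 0.373). Of 23 hypoxia response genes none was called in edgeR (9 at an unadjusted p under 0.05, 3 higher and 6 lower, beside 23.4% of all genes, and none in DESeq2), with a median of -0.04. Epas1, the hypoxia-inducible factor of oxygen-sensing lung cells, had 310 and 281, and 304 and 309 (0.05, SE 0.182, adjusted p = 0.890). Of 10 genes of shelterin and telomere maintenance none was called in edgeR or DESeq2, with none at an unadjusted p under 0.05, and of 10 proliferation genes likewise none.

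Single genes were called in the other lists, where 5.59% of all genes were higher and 0.601% lower. Of 21 immediate early and heat shock genes, the chaperones Hspa8 (1.45, SE 0.329, adjusted p = 0.0407) and Hspa1a (2.17, SE 0.511, adjusted p = 0.0461) rose, with 1.97 and 2.53 in the droplets. Of 19 clock genes, the output factor Dbp rose by 1.34 (SE 0.248, adjusted p = 0.0227), and of 24 detoxification genes Gstm1, a glutathione transferase, by 1.47 (SE 0.202, adjusted p = 0.0104) and Sod1, a superoxide dismutase, by 0.83 (SE 0.177, adjusted p = 0.0338). In the droplets Dbp had 2.11, Gstm1 1.59 and Sod1 1.31. After subtraction of free RNA, Gstm1 passed (2.30, adjusted p = 0.0247), while Hspa8 had 1.64 (adjusted p = 0.0818), Hspa1a 1.98 (0.342), Dbp 0.81 (0.471) and Sod1 0.80 (0.179). Of 25 ion transport and surface genes, the mucin Muc16 rose by 1.28 (SE 0.225, adjusted p = 0.0192) and the anion exchanger Slc26a4, also called pendrin, fell by 2.43 (SE 0.45, adjusted p = 0.0226). Slc26a4 had 199 and 67.6 CPM in the WT nuclei and 21.4 and 28.9 in the Tg nuclei, against 513 and 147, and 16.4 and 52.4, in the droplets. Its droplet levels exceeded those of the nuclei in both WT mice. Muc16 had 1.25 in the droplets, and neither gene passed after subtraction, with 1.64 for Muc16 (adjusted p = 0.292) and -0.56 for Slc26a4 (adjusted p = 0.534).

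Among named genes, the 12 largest rises were mostly of low counts. Platr31, Arhgap27os2, Glra4, Grm3 and C1qtnf2 had no UMI in the WT nuclei and 33 to 56 in the Tg nuclei. Set against 3 UMIs over the WT group, the limit that a count of 0 allows, they were at least 8.35-fold (Platr31), 6.41-fold (Arhgap27os2), 5.52-fold (Glra4), 4.92-fold (Grm3) and 4.92-fold (C1qtnf2) higher. Grm3, a metabotropic glutamate receptor, had -0.33 in the droplets. The droplets of Tg lungs were higher for Platr31 (1.77), Arhgap27os2 (3.56), C1qtnf2 (2.87), Pold4 (3.25) and Aknaos (2.06), each with an adjusted p under 0.05, and Kctd4 had 1.28 there. Glra4 and Dpep2nb were not tested in the droplets. Pold4, a subunit of DNA polymerase delta, had 1 UMI in WT lungs together and 84 in Tg lungs, a ratio of 37.6 (counting interval 6.56 to 1500). Aknaos and Kctd4 likewise had 1 UMI in WT lungs, with ratios of 36.7 (6.40 to 1470) and 31.3 (5.44 to 1250), and Dpep2nb had 2, with a ratio of 26.8 (7.27 to 224). Bpifa1, a secreted protein of the upper airway, had 12.2 and 0.545 CPM in the WT nuclei and 292 and 72.5 in the Tg nuclei (4.63, SE 0.861, adjusted p = 0.0227), with 5.48 in the droplets. The remaining 2 were the globin genes Hbb-bt and Hbb-bs. The names ending in os mark transcripts antisense to another gene, and whether counting used the strand is not given in the sources used here.

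The largest falls also included genes of low counts. Acod1, which makes itaconate in activated macrophages, had 28 UMIs in WT lungs and 1 in Tg lungs, a ratio of 62.6 (counting interval 10.3 to 2560). The chemokine Ccl2 had 19 and 3 UMIs (14.2, interval 4.17 to 74.7), the myeloid receptor Tarm1 18 and 3 (13.4, 3.91 to 71.1), and the helicase Pif1 16 and 3 (11.9, 3.41 to 63.8). The chemokine Ccl24 and Ctla4, an inhibitory receptor of T cells, fell by 3.47 and 2.88 on the log2 scale, with -2.74 and -2.22 in the droplets. For both genes the droplet levels lay above those of the nuclei in every mouse. Camk1d, a calmodulin-dependent kinase, had the most UMIs of the genes named here, with 2430 and 1450 CPM in the WT nuclei and 360 and 340 in the Tg nuclei (-2.47, SE 0.302, adjusted p = 0.00874), against 5490 and 3680, and 986 and 726, in the droplets. The protease Capn9 (-4.23), the creatine synthesis enzyme Gatm (-2.61), Slc26a4 and the NF-kappaB regulator Tnip3 (-2.4) were also among the largest falls. Each gene named in this group was also lower in the droplets of Tg lungs, with log2 fold changes of -1.78 to -4.42, and most were not tested after subtraction of free RNA. Of those that were, none passed, with -4.65 for Capn9 (adjusted p = 0.0794), -1.56 for Camk1d (0.375), -0.56 for Slc26a4 (0.534) and -0.41 for Tnip3 (0.866).

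A smaller set stood apart from the droplets. Chosen after their values were seen, 24 genes passed in the nuclei, after subtraction of free RNA and in the difference from the droplets, all in the same direction. Of these, 22 were higher and 2 lower (Dnah8 and Gm26917), and 13 were unnamed gene models. Lyrm1 (ENSMUSG00000030922, chr7:119895713-119916756), of the LYR-motif family of mitochondrial proteins, had 89.2 and 57.7 CPM in the WT nuclei and 441 and 225 in the Tg nuclei (log2 fold change 2.17, SE 0.35, adjusted p = 0.0144). Its droplets had 27.6 and 22.8, and 18.5 and 20.3 (-0.22). Gad1os (ENSMUSG00000087264, chr2:70489940-70563357), a transcript antisense to the glutamate decarboxylase gene Gad1, had 23.8 and 14.7, and 181 and 113 (2.90, SE 0.316, adjusted p = 0.0072), with 7.45 and 3.43, and 5.57 and 5.53, in the droplets. For both genes the Tg nuclei lay above the WT nuclei without overlap, while in the droplets Lyrm1 was lower in Tg lungs and Gad1os overlapped.

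Dync1i1 (ENSMUSG00000029757, chr6:5725600-6028039), an intermediate chain of cytoplasmic dynein, rose from 58.2 and 21.8 CPM to 430 and 232 (3.01, SE 0.451, adjusted p = 0.0122), with 1.43 in the droplets. The ubiquitin ligase Wwp1 had 191 and 203, and 527 and 345 (1.15, SE 0.24, adjusted p = 0.0313), with -0.58 in the droplets. Thbs3, a thrombospondin, rose by 2.52, Lrrc4, a synaptic adhesion protein, by 2.55, and Lysmd4 by 2.68, with 0.72, 1.39 and 1.5 in the droplets. The difference from the change in AT2-like barcodes passed for 8 of the 24 genes, and it was -0.12 for Lrrc4 (adjusted p = 0.972) and 0.09 for Lysmd4 (adjusted p = 0.989). Some of the others are better known from other cells. Cx3cr1, the fractalkine receptor of monocytes, had 19.2 and 11.4, and 115 and 59.5 CPM (2.47, SE 0.375, adjusted p = 0.0126), against 5.77 and 6.36, and 8.79 and 11.2, in the droplets. Nos3, the endothelial nitric oxide synthase, had 5.29 and 5.45, and 31.9 and 25 (2.4, SE 0.32, adjusted p = 0.0102), and the autophagy gene Atg16l2 had 12.6 and 14.7, and 71.3 and 48.5 (2.15, SE 0.279, adjusted p = 0.00989). The Nos3 level was higher in the ciliated nuclei than in the droplets of both Tg mice (10.9 and 6.12). None of the 24 genes passed without Tg replicate 1, where Lyrm1 had 1.61 (adjusted p = 0.233) and Gad1os 2.53 (adjusted p = 0.209).

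The change in ciliated nuclei was also compared with that in the AT2-like barcodes of the same mice, as an interaction of genotype and class with a term for each mouse. It was called for 199 of 18024 genes (1.10%), positive for 181 (1.00%) and negative for 18 (0.0999%). A positive difference is not a rise in ciliated nuclei: of the 181 genes, 89 had a log2 fold change of 0 or below there. Of the 199 genes, 138 were at least 4-fold higher in ciliated nuclei than in other barcodes of every mouse, beside 5.35% of genes. Of the 133 genes of the axoneme and transport lists tested between genotypes, 27 were among the positive ones, beside 1.00% of all genes. The AT2-like barcodes had been limited to fewer than 3 UMIs of the rule genes, and the part of this limit in the positive differences was not tested. In the droplets the rule genes were lower in Tg lungs (346 and 302 CPM against 1307.3 and 578 in WT lungs). The median log2 fold change of the axoneme and transport lists together was 0.01 in the droplets, but the lists differed. It was -0.60 for the dynein chains (9 positive differences) and -0.40 for the radial spoke and central pair genes (10). For dynein assembly and docking it was 0.21 (3), for doublets and the nexin-dynein complex 0.58 (4) and for intraflagellar transport 0.10 (1). Whether the positive differences follow the droplet levels was not tested. From endothelial and mesenchymal genes, free RNA was estimated to make up 76.1% to 97.0% of the UMIs of the AT2-like barcodes. After subtraction of free RNA from both classes none passed in edgeR (930 at an unadjusted p under 0.05). Against the type 1 alveolar barcodes 8 passed. Lyrm1 (2.32, SE 0.243, adjusted p = 0.000296) and Gad1os (2.58, SE 0.276, adjusted p = 0.000296) changed more in the ciliated nuclei. Foxj1 differed by 0.93 (SE 0.177, adjusted p = 0.0142), with 42.1 and 23.8, and 37.5 and 28.9 CPM in the AT2-like barcodes. Adam7 differed by -3.69 (SE 0.518, adjusted p = 0.00165), with 0.929 and 0.593, and 7.73 and 4.74, in the AT2-like barcodes and 6.66 and 3.86, and 3.45 and 3.39, in the ciliated nuclei.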

How the data were processed

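Single-nucleus RNA-seq of whole lung was available for 2 WT and 2 VEcad-TRF2DN-Tg mice. The authors deposited unfiltered matrices of UMI counts per gene and barcode, made with Cell Ranger 6.1.1 per the submitters' processing notes on mm10, with intronic reads counted. The paper states that it excluded low-quality nuclei and multiplets and removed ambient RNA. Its filtered set of nuclei was not used here, and no doublet caller was run on the barcodes taken here. Genotypes came from the sample labels.

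Members and gene lists were chosen with earlier results of these data known. Counts of the ciliated nuclei were summed per mouse, genes with low counts were removed (filterByExpr, minimum count 10), and genotypes were compared with edgeR 4.0.16 (TMM, quasi-likelihood test, Benjamini-Hochberg) in R 4.3.3. DESeq2 1.42.0 was an alternative. Exact permutation tests used SciPy 1.17.1. Free RNA was the profile of barcodes ranked 45000 to 90000 in each mouse, scaled to an estimated share, rounded and floored at 0 for subtraction. The share was estimated from 4 surfactant genes for the ciliated nuclei. For the AT2-like barcodes it was estimated from the endothelial and mesenchymal genes Cdh5, Pecam1, Ptprb, Tek, Kdr, Col1a2, Col3a1, Pdgfra, Tcf21 and Pdgfrb. The scripts were tested on simulated data.

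Named genes were the 12 largest rises and falls among called, non-overlapping genes (without rule genes and unnamed models), up to 4 called members of each list or else its 2 with most UMIs, the 6 largest differences from AT2-like barcodes in each direction, the 20 highest ranked in ciliated nuclei, the 10 most variable, and Foxj1, Cdkn1a, Hes1, Terf2, Scgb1a1 and the 9 rule genes. The genes beyond the droplets, and those described for Galntl6 and Cdc20b nuclei, were added after their values were seen. Some genes that these rules name are not reported here.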

Additional observations from a re-analysis of the deposited data

Results flagged for a closer look

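The change with genotype differed between the ciliated nuclei and the AT2-like barcodes for 199 genes, by a test of the difference itself (edgeR's quasi-likelihood test with Benjamini-Hochberg adjustment). Among the named genes with a positive difference (the log2 fold change in ciliated nuclei minus that in AT2-like barcodes), it was 5.27 for Gm26843 (2, 0, 8 and 11 UMIs in the ciliated nuclei), 3.36 for Gm43140, 3.35 for Gzmk, a granzyme of lymphocytes, 3.05 for Gm41625 and 2.79 for Tmem267. Gm41625 and Tmem267 had -0.24 and -0.82 in the ciliated nuclei against -3.20 and -3.54 in the AT2-like barcodes. For Tmem267 the AT2-like barcodes of WT replicate 1 stood at 65.1 CPM and those of the other 3 mice at 2.45 to 3.58. The difference was negative for the others, with -3.69 for Adam7, -2.29 for F730035M05Rik, -2.03 for Gm15581, -1.83 for Itgbl1, -1.79 for Ccdc73 and -1.30 for Agrp. F730035M05Rik and Itgbl1 had -1.50 and -1.42 in the ciliated nuclei against 0.86 and 0.41 in the AT2-like barcodes. Foxj1 had a difference of 0.93 from the AT2-like barcodes and of 0.04 from the droplets.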

How the results depend on the processing

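The count of 906 genes called between genotypes became 2251 without a filter on low counts, 1995 with the replicate block, 111 after subtraction of free RNA and 403 in nuclei with fewer than 3 UMIs of other lineages. Leaving out 1 mouse at a time gave 0 at the lowest (Tg replicate 1 out) and 2227 at the highest (WT replicate 2 out), where the lone mouse of a genotype is assumed to vary like those of the other. The labels do not say that replicate numbers mark a batch, and the paired fit is given here only. It called 3 genes of dynein assembly and docking, 4 of doublets and 2 of intraflagellar transport higher. In the Notch list it called 1 gene higher and 1 lower, and in the hypoxia response list also 1 and 1. The count of 199 differences from AT2-like barcodes became 8 against type 1 alveolar barcodes, 494 against all other barcodes, 414 without the filter, 0 after subtraction of free RNA (930 at an unadjusted p under 0.05 in edgeR), and, in alternatives chosen after seeing the data, 1682 against droplets and 63 with a stricter AT2-like class. It ranged from 143 to 392 with a mouse left out. After subtraction, the log2 fold change turned to -2.39 for mt-Atp6, -0.74 for mt-Cytb and -1.57 for mt-Co1, and the difference to -0.27 for Gm41625. The fitted log2 fold change of Mrc1 turned to 9.90. Mrc1 was then at 0 UMIs in both WT mice, so that 9.90 is no readable size of change. With a mouse left out, Mrc1 ranged from -0.66 to 0.75, and the difference of Tmem267 from -0.11 to 3.39. The causes were not tested. The 2 mice per genotype and the free RNA limit all genotype comparisons.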
